A study of Mus musculus with 34 samples.

Results

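Activated mouse T cells labelled Ars2 KO and activated T cells that carry the AYAA form of the costimulatory receptor CD28 were compared directly with each other at 72 h of stimulation. The members were the 3 libraries labelled Ars2 KO and the 3 labelled CD28 AYAA at day 3, 6 of the 34 libraries of the series, taken by genotype and day. No WT library enters the contrast, so the differences below are not shared through a common control. Splenic pan T cells of C57BL/6 mice aged 6 to 12 weeks were purified by negative selection, and every culture used here was stimulated with antibodies to CD3 and CD28 and recombinant IL-2. RNA was depleted of ribosomal RNA before sequencing. The 3 Ars2 KO and 3 CD28 AYAA libraries at 24 h (day 1) give the same contrast at an earlier time, and 3 CD28 Y170F and 2 WT libraries at 72 h are given beside it as levels, with no test. The series' design text calls the libraries biological replicates, and the labels do not give the driver of the deletion in Ars2 KO cells or the residues changed in the CD28 alleles.

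ARS2, encoded by Srrt, binds the nuclear cap-binding complex on newly made capped transcripts. From there it joins the processing of replication-dependent histone messages and of primary microRNAs, and the decay of short-lived nuclear transcripts such as those made upstream of promoters. CD28 is the receptor that, beside the antigen receptor, licenses full T cell activation. AYAA names a change in a proline-containing motif of its cytoplasmic tail, through which kinases and adaptors couple CD28 to survival, growth and cytokine genes. Y170F names a change in a separate tyrosine motif of the same tail.

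Total expected counts per library lay between 22.3 and 30.3 M in the libraries compared. By Xist and Y-linked transcripts, the mice were male in Ars2 KO number 1 and female in numbers 2 and 3, and male in CD28 AYAA numbers 1 and 2 and female in number 3. The WT libraries at 72 h, given as levels below, were both male and of unequal depth. WT number 1 held 25.2 M counts and WT number 4 held 10.1 M, fewer than any library compared. The spread was wider among Ars2 KO libraries. Over 9509 genes, the SD of the log2 deviation of 1 library from the mean of the other 2 was 0.312, 0.394 and 0.431 for Ars2 KO numbers 1, 2 and 3, and 0.229, 0.196 and 0.283 for CD28 AYAA numbers 1, 2 and 3. Ars2 KO number 3 was the library farthest from its group, with 147 genes more than 2-fold above and 106 more than 2-fold below the mean of the other 2. Levels are CPM, counts per M of library total after TMM scaling, and a gene was called at a Benjamini-Hochberg adjusted p under 0.05 in edgeR's quasi-likelihood test over 18292 genes. T cell markers were present in every library, and of 8 edgeR, DESeq2 and limma-voom each called 0 (1 at an unadjusted p under 0.05). Their summed level was 1708 to 1914 CPM in Ars2 KO libraries and 1765 to 1918 CPM in CD28 AYAA libraries, both as shares of total counts.

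At 72 h the genotypes differed in 854 genes, 4.67% of those tested. Of these, 667 (3.65%) were higher in Ars2 KO and 187 (1.02%) were lower. The imbalance was wider among large differences, since 320 of the 356 called genes with at least a 2-fold difference were higher in Ars2 KO and 36 were lower. The median size of a called difference was 0.84 on the log2 scale, and the median over all genes tested was 0.01. A positive log2 fold change was found in 9282 of the 18292. List counts below stand beside these shares, and no list was tested as a set. The 3 Ars2 KO values and the 3 CD28 AYAA values did not overlap for 790 of the called genes (92.5%), against 19.6% of all genes tested. The count depended on estimating the spread from all 13 groups. In a fit to the 6 libraries alone, edgeR called 14 genes (0.091% of 15387), 11 higher and 3 lower, with 2133 genes at an unadjusted p under 0.05, and all 14 were among the 854. Without Ars2 KO number 1, 2 or 3 the count was 698, 1553 (8.49%; 6.58% higher, 1.91% lower) or 504 (2.76%; 2.02% higher, 0.745% lower), and without CD28 AYAA number 1, 2 or 3 it was 449, 375 or 513. The 14 genes are Srrt, Zmat3, Ndor1, Ckap4, Acadl, Ache, Ufsp1, Slc41a3, Adgrg1, Tnnt1, Gm25939, 1600020E01Rik, 4933404O12Rik and 6820402A03Rik, and other genes named below passed only in the fit to all 34 libraries.

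Srrt (ENSMUSG00000037364.11, GRCm38 chromosome 5, 137295704 to 137307674) is the gene targeted in Ars2 KO cells and was read first, as a check of the labels. It stood at 108, 146 and 105 CPM in Ars2 KO libraries, against 255, 249 and 247 CPM in CD28 AYAA libraries. The groups did not overlap, and the difference was -1.06 on the log2 scale (SE 0.21, adjusted p = 0.0029). WT libraries held 245 and 145 CPM, so WT number 4 lay just below Ars2 KO number 2, and at 72 h the check held against CD28 AYAA but not against both WT libraries. At 24 h the residual level was lower, with 33.8, 64.8 and 33.5 CPM in Ars2 KO libraries against 185, 185 and 187 CPM in CD28 AYAA libraries, which is -2.07 on the log2 scale (SE 0.22, adjusted p = 2.7e-06). WT libraries held 244 and 131 CPM at 24 h, both above every Ars2 KO library. The difference at 72 h minus that at 24 h was 1.01 (SE 0.3) and did not pass (adjusted p = 0.056). Of 20 genes of the cap-binding complex and its partners Srrt was the only one called at 72 h, with a list median of -0.13.

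Cd28 (ENSMUSG00000026012.2, GRCm38 chromosome 1, 60716800 to 60773359) was not called. Its level was 274, 231 and 451 CPM in Ars2 KO libraries and 323, 318 and 283 CPM in CD28 AYAA libraries (log2 fold change 0.05, SE 0.14, adjusted p = 0.9). WT libraries held 474 and 587 CPM. Pkm, which encodes pyruvate kinase and stands in the series title, held 972, 1282 and 980 CPM in Ars2 KO libraries and 1035, 1073 and 1120 CPM in CD28 AYAA libraries. The difference was 0.0 on the log2 scale (SE 0.26, adjusted p = 1.0), and gene-level counts do not tell its splice forms apart. Of 23 genes of glycolysis and lactate export edgeR, DESeq2 and limma-voom each called 0, with 1 at an unadjusted p under 0.05 and a median of -0.04.

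Several targets of the tumour suppressor p53 were higher in Ars2 KO. Of 22 p53 target genes tested, 9 rose and 0 fell at 72 h, against 3.65% and 1.02% of all genes tested. A positive log2 fold change was found in 19 of the 22, with a median of 0.39. Those that rose were Zmat3, Phlda3, Plk2, Ccng1, Bbc3, Pmaip1, Cdkn1a, Ei24 and Trp53inp1. Trp53 itself, the gene of p53, stood at 141, 166 and 135 CPM in Ars2 KO libraries and 154, 177 and 170 CPM in CD28 AYAA libraries (log2 fold change -0.18, SE 0.1, adjusted p = 0.36). With 1 library left out, 6 to 10 of the 22 rose and 0 fell. In the 6 libraries alone only Zmat3 did. Ei24, an apoptosis-linked membrane protein gene, rose by 0.3 (SE 0.08, adjusted p = 0.033) and was lost with any 1 of the 6 libraries left out (adjusted p = 0.052 to 0.13).

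Cdkn1a encodes p21, the cyclin-dependent kinase inhibitor that p53 induces to halt the cell cycle, and Ccng1 encodes cyclin G1, a partner of a phosphatase that restrains p53. Their promoters are shown because both genes rose and both windows hold a close match to the p53 response element. The sequences are those of RefSeq on GRCm38.p6, from 250 bases before to 50 bases after an annotated start, on the strand of the gene, with the 20-base match in capitals. That of Cdkn1a lies at chr17:29090729-29091028 on the plus strand, at the more upstream of its 2 annotated starts, and that of Ccng1 at chr11:40755237-40755536 on the minus strand.
Cdkn1a: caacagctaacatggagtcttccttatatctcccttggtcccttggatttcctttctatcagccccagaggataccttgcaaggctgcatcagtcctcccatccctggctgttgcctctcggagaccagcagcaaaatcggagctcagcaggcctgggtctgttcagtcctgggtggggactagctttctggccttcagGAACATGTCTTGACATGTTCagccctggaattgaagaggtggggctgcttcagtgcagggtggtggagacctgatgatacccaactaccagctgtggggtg
Ccng1: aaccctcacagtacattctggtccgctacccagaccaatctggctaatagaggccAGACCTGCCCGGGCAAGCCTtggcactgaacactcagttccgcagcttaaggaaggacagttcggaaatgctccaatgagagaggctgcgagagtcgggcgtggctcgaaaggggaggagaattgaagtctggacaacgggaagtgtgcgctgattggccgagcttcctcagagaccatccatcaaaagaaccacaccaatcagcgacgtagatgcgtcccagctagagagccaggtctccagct
The match begins 51 bases before the start in Cdkn1a and 195 bases before it in Ccng1, and each differs from the response element at 1 of 20 positions, searched on these windows with no gap between the half-sites and the 4 core bases held fixed. Of 32851 promoter windows of this length, 22 (0.067%) held a match with at most 1 mismatch. Among the 18 p53 targets with a window, Cdkn1a, Ccng1 and Gtse1 did, and Gtse1 was not called at 72 h (log2 fold change 0.16, SE 0.2, adjusted p = 0.7). These matches describe letters in a window and are not binding sites measured here.

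Zmat3, an RNA-binding protein that p53 induces, was level within each group. It stood at 68.3, 67.4 and 71.8 CPM in Ars2 KO libraries, against 41.2, 41.4 and 39.4 CPM in CD28 AYAA libraries. The difference was 0.76 on the log2 scale (SE 0.1, adjusted p = 8.2e-05), and it was also called in the 6 libraries alone (adjusted p = 0.035). WT libraries held 38.9 and 61.9 CPM, so both lay below every Ars2 KO library.

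Cdkn1a held 37.6, 53.7 and 30.9 CPM in Ars2 KO libraries, against 14.9, 16.4 and 20.7 CPM in CD28 AYAA libraries. The difference was 1.23 on the log2 scale (SE 0.29, adjusted p = 0.012), and WT libraries, with 18.1 and 23.1 CPM, stood near CD28 AYAA. Without CD28 AYAA number 1 or number 2 the value was 1.13 or 1.19 and the call was lost (adjusted p = 0.072 and 0.063). Ccng1 held 241, 283 and 227 CPM in Ars2 KO libraries, against 160, 171 and 194 CPM in CD28 AYAA libraries (log2 fold change 0.52, SE 0.1, adjusted p = 0.0018). Phlda3, whose product restrains AKT at the membrane, rose by 1.44 (SE 0.25, adjusted p = 0.0012), with 7.31, 6.57 and 6.02 CPM in Ars2 KO libraries and 2.61, 2.05 and 2.7 CPM in CD28 AYAA libraries. Plk2, a polo-like kinase, rose by 1.75 (SE 0.32, adjusted p = 0.0014), with 3.61, 3.7 and 4.92 CPM in Ars2 KO libraries and 1.1, 1.21 and 1.29 CPM in CD28 AYAA libraries. In all 4 genes the groups did not overlap.

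**Figure D1:**
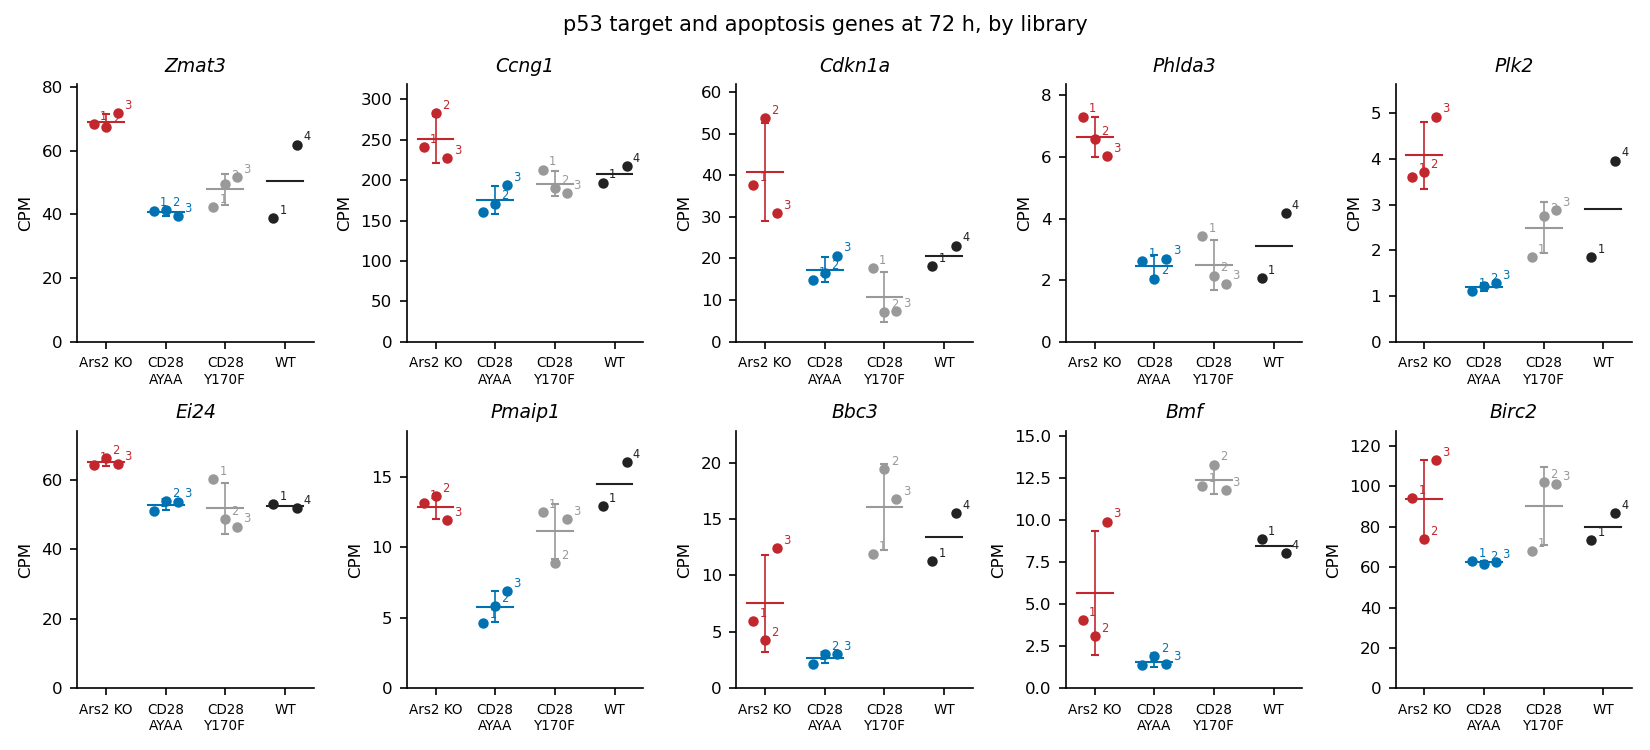
Level in CPM (vertical axis, from 0) of 10 p53 target and apoptosis genes in each library at 72 h, for Ars2 KO, CD28 AYAA, CD28 Y170F and WT. Points are libraries with their numbers, horizontal lines group means and error bars the SD, which is not drawn for the 2 WT libraries. In each of the 10 genes every Ars2 KO library lies above every CD28 AYAA library. In Bbc3 and Bmf, Ars2 KO numbers 1 and 2 lie below both WT libraries.

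Of 21 apoptosis and survival genes 4 rose, 0 fell and 17 did not pass (median 0.18), where 3.65% of all genes tested rose. Those that rose were Birc2 and the death-promoting BCL2 family members Bmf, Bbc3 and Pmaip1. In the 6 libraries alone 0 passed, and in the fit to all groups 4 or 5 rose whichever library was left out. Bbc3 encodes PUMA and Pmaip1 encodes NOXA, both of which also stand in the p53 list. Birc2, an inhibitor of apoptosis that also acts in NF-kB signalling, held 94.1, 74.0 and 113 CPM in Ars2 KO libraries against 63.1, 61.5 and 62.6 CPM in CD28 AYAA libraries (log2 fold change 0.59, SE 0.13, adjusted p = 0.0061), and without Ars2 KO number 3 it did not pass (0.43, adjusted p = 0.065).

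Pmaip1 stood at 13.1, 13.6 and 11.9 CPM in Ars2 KO libraries, against 4.66, 5.81 and 6.88 CPM in CD28 AYAA libraries (log2 fold change 1.15, SE 0.24, adjusted p = 0.0049). With 12.9 and 16 CPM, both WT libraries lay above every CD28 AYAA library. Bbc3 held 5.97, 4.24 and 12.4 CPM in Ars2 KO libraries and 2.15, 3.0 and 3.0 CPM in CD28 AYAA libraries (log2 fold change 1.47, SE 0.28, adjusted p = 0.0027). Bmf, which senses detachment and cytokine loss, held 4.04, 3.09 and 9.91 CPM in Ars2 KO libraries and 1.37, 1.94 and 1.44 CPM in CD28 AYAA libraries (log2 fold change 1.83, SE 0.33, adjusted p = 0.0015). WT libraries held 11.3 and 15.5 CPM of Bbc3 and 8.86 and 8.03 CPM of Bmf, levels reached in Ars2 KO only by number 3. Without that library the values were 0.91 (adjusted p = 0.039) for Bbc3 and 1.17 (adjusted p = 0.019) for Bmf.

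Of 16 genes of the antioxidant response driven by NRF2, 3 fell and 0 rose, against 1.02% and 3.65% of all genes tested. Their median was -0.42, and 2 of the 16 had a positive log2 fold change. At 24 h, 1 of the 16 was higher and 1 was lower, with a median of 0.11 and 9 positive values. Slc7a11, the cystine importer that feeds glutathione synthesis, stood at 0.91, 1.53 and 3.78 CPM in Ars2 KO libraries, against 12.1, 13.7 and 8.43 CPM in CD28 AYAA libraries. The difference was -2.47 on the log2 scale (SE 0.55, adjusted p = 0.0076), and WT libraries held 1.59 and 0.313 CPM, both below every CD28 AYAA library. Nqo1, a quinone reductase, held 4.15, 7.68 and 13.6 CPM in Ars2 KO libraries and 26.3, 21.1 and 16.8 CPM in CD28 AYAA libraries (log2 fold change -1.34, SE 0.31, adjusted p = 0.012).

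Srxn1, which repairs overoxidised peroxiredoxins, held 6.67, 12.6 and 7.05 CPM in Ars2 KO libraries and 14.3, 20.8 and 19.1 CPM in CD28 AYAA libraries (log2 fold change -1.05, SE 0.29, adjusted p = 0.036). The Srxn1 call was lost without Ars2 KO number 1 (-0.88, adjusted p = 0.14) or 3 (-0.91, 0.14), or without CD28 AYAA number 2 (-0.93, 0.15) or 3 (-1.0, 0.1). The Nqo1 call was lost without Ars2 KO number 1 (-1.01, adjusted p = 0.065) or CD28 AYAA number 1 (-1.16, 0.072). Txnrd1, thioredoxin reductase, held 260, 365 and 237 CPM in Ars2 KO libraries and 477, 489 and 431 CPM in CD28 AYAA libraries without passing (log2 fold change -0.7, SE 0.24, adjusted p = 0.099). Its groups did not overlap, nor did those of Gclc (-0.35, adjusted p = 0.081) and Gclm (-0.42, adjusted p = 0.13), which encode the glutathione-synthesis enzyme glutamate-cysteine ligase. Hmox1, heme oxygenase, was the largest exception in sign at 1.08 (SE 0.34, adjusted p = 0.065). Without Ars2 KO number 1 the members that fell numbered 1, with 1 that rose, without Ars2 KO number 2 they numbered 6, and without any 1 CD28 AYAA library 2.

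**Figure D2:**
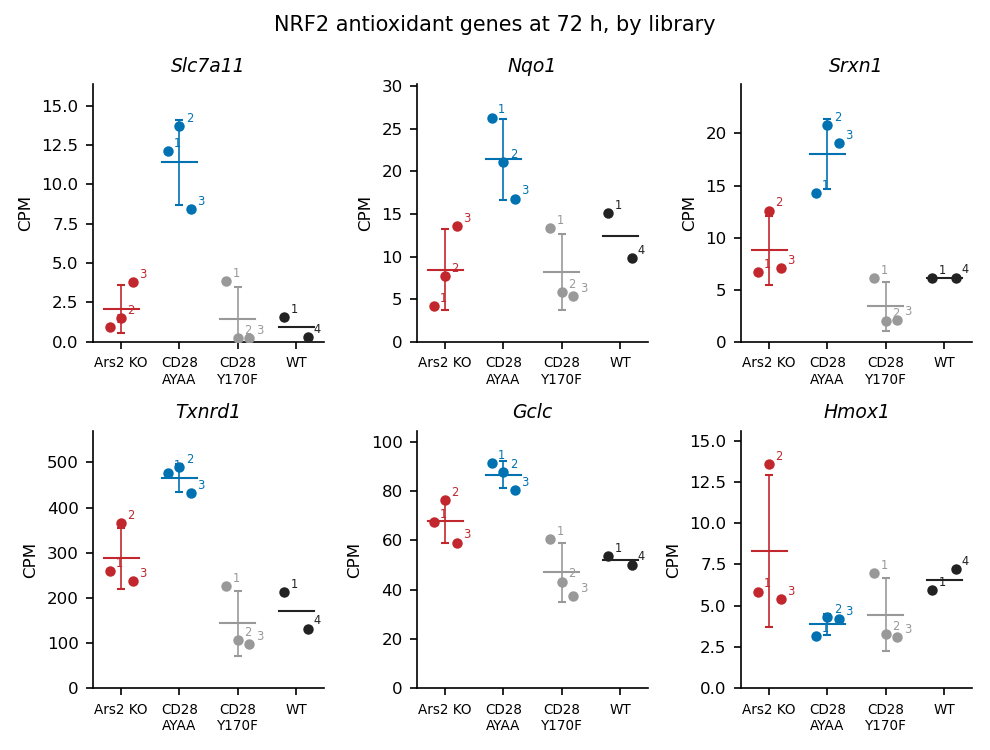
Level in CPM (vertical axis, from 0) of 6 NRF2 antioxidant genes in each library at 72 h, for Ars2 KO, CD28 AYAA, CD28 Y170F and WT. Points are libraries with their numbers, lines group means and error bars the SD, not drawn for WT. In Slc7a11, Nqo1, Srxn1, Txnrd1 and Gclc every Ars2 KO library lies below every CD28 AYAA library, and in Hmox1 every one lies above.

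Transcript classes on which ARS2 is known to act were read next. Of 4 microRNA host transcripts tested, 1 rose and 0 fell. Mir155hg (GRCm38 chromosome 16, 84703167 to 84715245) is the host of miR-155, a microRNA induced in activated T cells. It held 4.01, 6.64 and 3.89 CPM in Ars2 KO libraries, against 1.78, 1.63 and 2.85 CPM in CD28 AYAA libraries (log2 fold change 1.21, SE 0.23, adjusted p = 0.0027), and WT libraries held 1.72 and 2.61 CPM. Its groups did not overlap, and the value was 0.92 (SE 0.22, adjusted p = 0.0078) at 24 h. Both mature arms are shown, from RefSeq on GRCm38.p6, with the seed (bases 2 to 8) in capitals, since the count measured is that of the host and not of these products.
mmu-miR-155-5p: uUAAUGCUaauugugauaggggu
mmu-miR-155-3p: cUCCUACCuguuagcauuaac
Mir22hg, Mir142hg and Mir17hg, hosts of other microRNAs, did not pass, with log2 fold changes of 0.58, 0.3 and -0.21.

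Of 63 replication-dependent histone genes 1 was called at 72 h, with a list median of -0.13. That gene, Hist2h2be, held 18.5, 11.0 and 24.2 CPM in Ars2 KO libraries, against 4.62, 4.21 and 3.99 CPM in CD28 AYAA libraries (log2 fold change 2.07, SE 0.26, adjusted p = 4.6e-05). WT libraries stood between, at 6.41 and 10.7 CPM. Histone genes resemble each other closely, so reads may be divided between copies. Of 15 host transcripts of small nucleolar RNAs 1 rose, Snhg8 (log2 fold change 0.34, SE 0.08, adjusted p = 0.015), whose call was lost without CD28 AYAA number 1 (0.34, adjusted p = 0.054) or 2 (0.33, 0.068).

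By annotated class, 9 of 50 long noncoding RNAs from bidirectional promoters were called (18%), 6 higher and 3 lower. Protein-coding genes were called in 5.29% of cases. The 559 lincRNAs were called in 5.19%, close to that share, with 29 higher and 0 lower. At 24 h, 19 lincRNAs were higher and 23 lower, and of the RNAs from bidirectional promoters 1 was higher and 2 were lower. One antisense transcript, 1600020E01Rik, which overlaps Pcbp1 on chromosome 6, was chosen after its values were seen. It held 65.4, 33.0 and 61.3 CPM in Ars2 KO libraries, against 9.96, 9.76 and 10.8 CPM in CD28 AYAA libraries (log2 fold change 2.39, SE 0.21, adjusted p = 1.7e-07). WT libraries held 10.7 and 15.3 CPM, both below every Ars2 KO library. Gm12000, antisense to Ikzf1 and likewise chosen afterwards, held 12.4, 7.91 and 32.0 CPM in Ars2 KO libraries and 5.76, 6.0 and 3.76 CPM in CD28 AYAA libraries (log2 fold change 1.75, SE 0.31, adjusted p = 0.0012), and 0.98 (adjusted p = 0.012) without Ars2 KO number 3. Since the strand setting of the counting is not stated, reads of a gene and its antisense partner cannot be told apart.

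The CD8 coreceptor genes were lower in Ars2 KO. Cd8a stood at 488, 441 and 299 CPM in Ars2 KO libraries, against 676, 646 and 583 CPM in CD28 AYAA libraries (log2 fold change -0.63, SE 0.13, adjusted p = 0.0031). Cd8b1 held 282, 251 and 212 CPM in Ars2 KO libraries and 365, 350 and 318 CPM in CD28 AYAA libraries (log2 fold change -0.47, SE 0.11, adjusted p = 0.011). In neither gene did the groups overlap, and the Cd8b1 call was lost without Ars2 KO number 3 (-0.37, adjusted p = 0.087) or CD28 AYAA number 1 (-0.43, 0.064). Cd4, the coreceptor of helper cells, held 103, 61.6 and 212 CPM in Ars2 KO libraries and 97.0, 72.3 and 47.6 CPM in CD28 AYAA libraries, and did not pass (log2 fold change 0.8, SE 0.27, adjusted p = 0.09).

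The ratio of Cd8a to Cd4 counts was 4.74, 7.16 and 1.41 in Ars2 KO libraries, against 6.96, 8.93 and 12.2 in CD28 AYAA libraries and 4.39 and 3.21 in WT libraries. It was highest in CD28 AYAA number 3 and lowest in Ars2 KO number 3, and the groups overlapped. In bulk RNA, fewer cells of a type and less RNA per cell cannot be told apart. The part of these ratios in the differences of T cell genes was not tested. The 2 CD8 genes were the only ones called of 15 of the T cell receptor complex and coreceptors, and Cd3e (log2 fold change 0.1, adjusted p = 0.49), Cd3d (0.1, 0.56) and Cd3g (-0.12, 0.35), chains of that complex, did not pass.

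Of 15 genes associated with regulatory T cells, 3 rose, 0 fell and 12 did not pass, with a median of 0.29. Among all genes tested 3.65% rose. Foxp3, their defining transcription factor, held 13.4, 9.74 and 8.92 CPM in Ars2 KO libraries, against 7.31, 5.81 and 3.95 CPM in CD28 AYAA libraries (log2 fold change 0.92, SE 0.22, adjusted p = 0.013). Its call was lost without Ars2 KO number 1 (0.72, adjusted p = 0.083) or CD28 AYAA number 2 (0.94, 0.053) or 3 (0.71, 0.098). Ebi3, a subunit of the cytokine IL-35, held 1.62, 0.917 and 1.75 CPM in Ars2 KO libraries and 0.503, 0.228 and 0.342 CPM in CD28 AYAA libraries (log2 fold change 2.0, SE 0.41, adjusted p = 0.0038). WT libraries held 1.81 and 2.3 CPM, above every CD28 AYAA library. The third, Ikzf4, rose by 0.41 (SE 0.12, adjusted p = 0.047) and was lost with any 1 of the 6 libraries left out (adjusted p = 0.053 to 0.23). The list count was 1 without Ars2 KO number 1 or CD28 AYAA number 2, and 0 in the 6 libraries alone.

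Surface and signalling genes of T cells gave single calls rather than whole lists. Il4ra, the receptor chain of IL-4, held 299, 312 and 361 CPM in Ars2 KO libraries, against 524, 541 and 507 CPM in CD28 AYAA libraries (log2 fold change -0.69, SE 0.14, adjusted p = 0.004). Cd44, the adhesion receptor that marks antigen-experienced cells, held 106, 142 and 113 CPM in Ars2 KO libraries and 54.9, 66.1 and 82.6 CPM in CD28 AYAA libraries (log2 fold change 0.82, SE 0.15, adjusted p = 0.002). WT libraries held 109 and 113 CPM of Cd44, above every CD28 AYAA library. Among effector transcription factors Gata3 rose by 0.58 (SE 0.13, adjusted p = 0.0096) and Tox fell by 0.54 (SE 0.15, adjusted p = 0.04). Gata3 did not pass without Ars2 KO number 3 (0.34, adjusted p = 0.11) or CD28 AYAA number 2 (0.51, 0.077). Tox did not pass without Ars2 KO number 2 or 3 or CD28 AYAA number 1 or 2 (adjusted p = 0.084 to 0.21).

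Of 25 genes that act directly downstream of CD28, 2 rose and 0 fell, with a median of 0.02. Pik3r1, the regulatory subunit of PI3K, rose by 0.28 (SE 0.08, adjusted p = 0.044) and Gsk3b, a kinase that AKT inhibits, by 0.18 (SE 0.05, adjusted p = 0.044), and both were lost without Ars2 KO number 3 or any 1 of the CD28 AYAA libraries, Gsk3b also without Ars2 KO number 2. Of 21 cytokine genes edgeR, DESeq2 and limma-voom each called 0, with 1 at an unadjusted p under 0.05 and a median of 0.12. Of 31 NR4A, EGR and NF-kB activation factors edgeR called 0, DESeq2 3 and limma-voom 2, with 8 at an unadjusted p under 0.05 (median 0.19). Of 18 cytotoxic effector genes edgeR and limma-voom called 0 and DESeq2 1, with 6 at an unadjusted p under 0.05 (median 0.58). In the cytotoxic list Prf1, which encodes perforin, held 39.5, 76.4 and 5.57 CPM in Ars2 KO libraries and 11.8, 16.2 and 23.5 CPM in CD28 AYAA libraries (log2 fold change 1.24, SE 0.47, adjusted p = 0.14). Ars2 KO number 3 had the lowest Prf1 level of the 6 libraries and number 2 the highest.

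Among growth and energy genes, small differences in ribosomal protein genes were called. Of 84 cytosolic ribosomal protein genes 9 rose and 0 fell, against 3.65% and 1.02% of all genes tested. A positive log2 fold change was found in 80, with a median of 0.13. Rpl10a, with 714, 704 and 761 CPM in Ars2 KO libraries against 526, 576 and 574 CPM in CD28 AYAA libraries, had the lowest p (log2 fold change 0.38, SE 0.06, adjusted p = 0.00054). The count was 2 without CD28 AYAA number 1 or 3, 3 without Ars2 KO number 1, 4 without CD28 AYAA number 2, 6 without Ars2 KO number 2 or 3, and 5 with RLE scaling. Of 32 ribosome biogenesis factors edgeR and limma-voom called 0 and DESeq2 1, with 3 at an unadjusted p under 0.05, 1 positive log2 fold change and a median of -0.36. Of 38 respiratory chain subunits (median -0.08), 28 DNA replication genes (median -0.15) and 25 mitosis genes (median -0.02), edgeR, DESeq2 and limma-voom called 0, and 0 had an unadjusted p under 0.05. Of 34 interferon-induced genes 2 fell, Isg20 (-0.94, SE 0.18, adjusted p = 0.0025) and Oasl2 (-1.2, SE 0.35, adjusted p = 0.049), and Oasl2 was lost without any 1 library other than CD28 AYAA number 1 (adjusted p = 0.072 to 0.3).

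The remaining lists gave few calls. Of 20 hypoxia response genes 2 rose (median 0.17), Kdm3a, a histone demethylase (0.49, SE 0.1, adjusted p = 0.0057), and Bnip3l, a mitophagy receptor (0.65, SE 0.14, adjusted p = 0.0043), which was lost without Ars2 KO number 3 (adjusted p = 0.056). Of 24 naive and quiescent T cell genes Tob1 rose (0.67, SE 0.15, adjusted p = 0.007; median 0.23), and it was lost without Ars2 KO number 3 (0.079) or CD28 AYAA number 2 (0.051). Of 24 homing and adhesion receptors Cd44 was the 1 that rose (median 0.21), and of 26 ATF4, amino acid and one-carbon genes Slc7a11 the 1 that fell (median -0.12). Of 33 splicing regulators Tia1 fell (-0.41, SE 0.12, adjusted p = 0.046; median -0.13), and it was lost without Ars2 KO number 3 or any 1 CD28 AYAA library (adjusted p = 0.073 to 0.23). Of 18 costimulatory and inhibitory receptors Icos and Havcr2 rose (median 0.16). Havcr2, which encodes the inhibitory receptor TIM-3, held 15.2, 27.8 and 2.21 CPM in Ars2 KO libraries and 2.1, 3.53 and 4.9 CPM in CD28 AYAA libraries (log2 fold change 2.09, SE 0.57, adjusted p = 0.033), so the groups overlapped. Its call was lost without any 1 library other than Ars2 KO number 3 (adjusted p = 0.054 to 0.15). For 13 mitochondrially encoded messages, 12 genes of the MYC network and 27 of cholesterol and fatty acid synthesis edgeR called 0, with 4, 4 and 1 at an unadjusted p under 0.05. DESeq2 called 1, 1 and 0 of them and limma-voom 1, 0 and 0.

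The same contrast at 24 h called 1731 genes (9.46%), 989 higher (5.41%) and 742 lower (4.06%) in Ars2 KO. Of the 854 genes called at 72 h, 229 were also called at 24 h, 26.8% of the calls at 72 h and 13.2% of those at 24 h. Of these 229, 140 were higher on both days, 74 were lower on both and 15 changed direction. Zmat3 was not called at 24 h (0.3, adjusted p = 0.067), while Cdkn1a (1.72), Phlda3 (1.62), Plk2 (1.43) and Ccng1 (0.44) were. Counts at 24 h without Ars2 KO number 2 or 3 were 943 and 1043, and without CD28 AYAA number 1 or 2 they were 773 and 1043.

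Mitosis and histone genes were higher in Ars2 KO at 24 h. Of 25 mitosis genes 25 were higher in Ars2 KO at 24 h (median 1.3), and of 63 histone genes 55 were (median 1.23), where 72 h gave 0 and 1. The difference between the days, tested directly, called 644 genes (3.52%), 358 positive (1.96%) and 286 negative (1.56%). Ars2 KO and CD28 AYAA libraries of the same number were of the same sex on both days. Whether they came from the same mouse was not tested, and the fit, with no term for the mouse, treated them as independent. This limit also applies to the genes called on both days. It was negative for 23 of 25 mitosis genes and 44 of 63 histone genes. Interferon-induced genes had 8 of 34 higher at 24 h (median 0.46) and 7 with a negative difference between the days. Of 27 genes of the IL-2 receptor and STAT5 targets, 12 were higher at 24 h (median 0.5), and 1 was higher and 2 were lower at 72 h. Jak1 was that 1 (0.43, SE 0.11, adjusted p = 0.028), and Il21r fell beside Il4ra (-0.29, SE 0.08, adjusted p = 0.048). Without Ars2 KO number 3 or any 1 CD28 AYAA library Jak1 was lost, and Il21r was lost without any 1 of the 6.

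The count of 644 was 122 without CD28 AYAA number 1 of day 1 and was 209 without Ars2 KO number 2, 301 without Ars2 KO number 3 and 304 without CD28 AYAA number 2 of day 1. Without Ars2 KO number 1, 2 or 3 of day 3 it was 362, 1986 or 367, and without CD28 AYAA number 1, 2 or 3 of day 3 it was 369, 232 or 343. Single genes show both directions. Sytl2, which tethers secretory granules, held 42.8, 82.2 and 39.6 CPM in Ars2 KO libraries and 30.7, 38.7 and 58.4 CPM in CD28 AYAA libraries at 72 h. At 24 h it held 11.5, 12.1 and 7.62 CPM in Ars2 KO libraries against 61.0, 54.1 and 39.8 CPM in CD28 AYAA libraries, and the difference between the days was 2.67 (SE 0.35, adjusted p = 0.0011). Irf8, an activation-induced transcription factor, was higher in Ars2 KO at 24 h (1.7, SE 0.24, adjusted p = 8.6e-05) and not called at 72 h (-0.38, SE 0.23, adjusted p = 0.4), a difference of -2.08 (SE 0.34, adjusted p = 0.0025). Hist1h3d, a histone H3 gene, gave 2.02 and -0.13 (adjusted p = 1.7e-05 and 0.81).

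**Figure D3:**
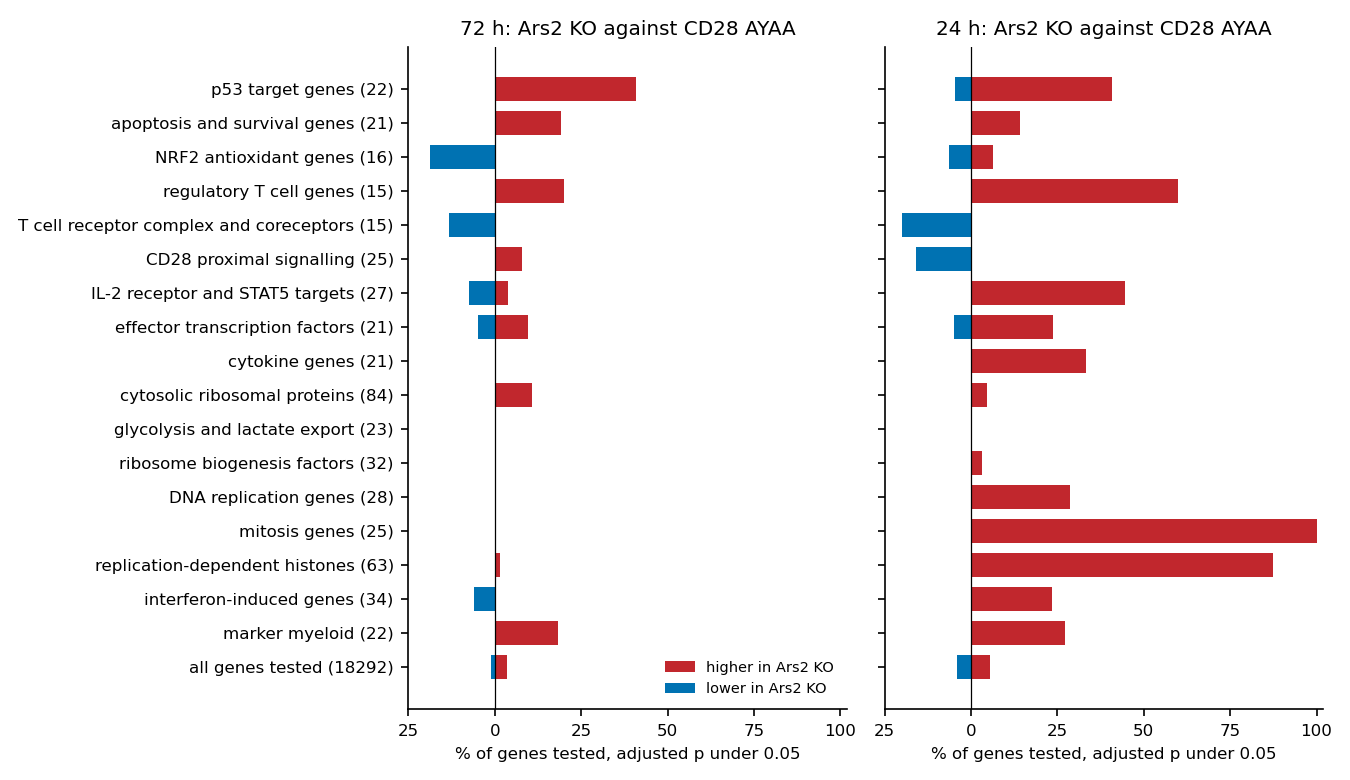
Share of the genes tested in each list, in % (horizontal axis), called higher (right of 0) or lower (left of 0) in Ars2 KO than in CD28 AYAA at 72 h and at 24 h, with the number tested in brackets and all genes at the bottom. At 72 h the p53 list reaches 9 of 22 and the mitosis and cytokine lists 0, while at 24 h mitosis genes reach 25 of 25 and histones 55 of 63.

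Among genes ranked by the size of the difference, Hist2h2be led those higher in Ars2 KO. Zscan12, a zinc finger protein, held 25, 14.6 and 30.7 CPM in Ars2 KO libraries, against 8.87, 8.28 and 6.23 CPM in CD28 AYAA libraries (log2 fold change 1.59, SE 0.19, adjusted p = 2e-05). Ap4b1, a subunit of the AP-4 adaptor of vesicle traffic, held 52.7, 37.5 and 73.9 CPM in Ars2 KO libraries and 20.7, 22.1 and 21.8 CPM in CD28 AYAA libraries (log2 fold change 1.35, SE 0.14, adjusted p = 2.4e-06). In both genes WT libraries stood near CD28 AYAA, at 7.44 and 7.83 CPM of Zscan12 and 25.5 and 28.9 CPM of Ap4b1.

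Ptprv, a phosphatase gene that p53 induces in mouse cells and that was not on the p53 list, held 17.9, 11.6 and 29.5 CPM in Ars2 KO libraries and 7.5, 6.34 and 7.98 CPM in CD28 AYAA libraries (log2 fold change 1.44, SE 0.23, adjusted p = 0.00045). Neb, which encodes the muscle protein nebulin, held 193, 208 and 292 CPM in Ars2 KO libraries and 69.7, 91.8 and 99 CPM in CD28 AYAA libraries (log2 fold change 1.41, SE 0.22, adjusted p = 0.00041). Pgap1, which remodels GPI anchors, rose by 1.57 (SE 0.25, adjusted p = 0.00041), and Letm2, a mitochondrial membrane protein gene, by 1.35 (SE 0.26, adjusted p = 0.0027). Without Ars2 KO number 3 the value of Letm2 was 0.85 (adjusted p = 0.039). Firre, an X-linked long noncoding RNA, held 11.9, 24.1 and 21.2 CPM in Ars2 KO libraries and 5.94, 5.62 and 10.4 CPM in CD28 AYAA libraries (log2 fold change 1.38, SE 0.27, adjusted p = 0.0028). In each group its female libraries were above its male ones, and with a term for sex the value was 1.17 (adjusted p = 8.2e-05).

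Of the large differences, 4 rested on Ars2 KO number 3. Tbc1d4, a regulator of glucose transporter traffic, held 25.2, 14.0 and 88.3 CPM in Ars2 KO libraries, against 13.8, 8.5 and 9.54 CPM in CD28 AYAA libraries (log2 fold change 2.0, SE 0.4, adjusted p = 0.003). Without that library the value was 0.89 (adjusted p = 0.069). Aldh2, mitochondrial aldehyde dehydrogenase, held 15, 12.3 and 54.6 CPM in Ars2 KO libraries and 9.83, 8.73 and 10.4 CPM in CD28 AYAA libraries (log2 fold change 1.5, SE 0.33, adjusted p = 0.0069), and 0.5 (adjusted p = 0.15) without it. Cd101, an inhibitory surface protein, fell out of the calls in the same way (1.4, adjusted p = 0.008, and 0.63, adjusted p = 0.16), as did Dnah17, a dynein chain (1.46, adjusted p = 0.0035, and 0.8, adjusted p = 0.059).

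In Aldh2 and Cd101, Ars2 KO number 3 was near or above both WT libraries (36.9 and 38.7 CPM, and 13.7 and 15 CPM), while Ars2 KO numbers 1 and 2 stood near CD28 AYAA. Trp53inp1, a p53 target, stood at 290, 221 and 547 CPM in Ars2 KO libraries, 203, 190 and 224 CPM in CD28 AYAA libraries and 633 and 696 CPM in WT libraries, so Ars2 KO number 2 overlapped CD28 AYAA. The difference was 0.78 on the log2 scale (SE 0.22, adjusted p = 0.044), and 0.31 (adjusted p = 0.47) without number 3. The call was also lost without any 1 of the CD28 AYAA libraries. Ars2 KO number 3 also had the highest Cd4 level and the highest summed level of 15 B cell markers, 540 CPM, against 211 and 171 CPM in the other Ars2 KO libraries and 232 to 253 CPM in CD28 AYAA libraries. Their part in these differences was not tested. Ctla4, chosen after its values were seen, held 52.7, 35.5 and 171 CPM in Ars2 KO libraries and 57.6, 44.1 and 38.6 CPM in CD28 AYAA libraries, and was not called (adjusted p = 0.15).

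**Figure D4:**
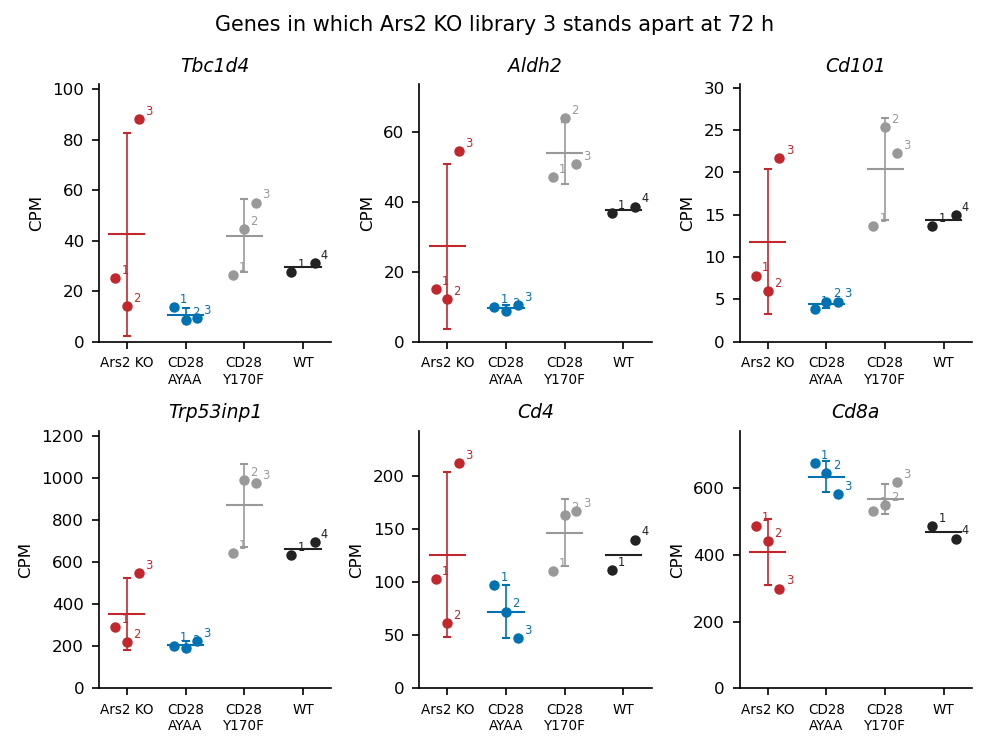
Level in CPM (vertical axis, from 0) of Tbc1d4, Aldh2, Cd101, Trp53inp1, Cd4 and Cd8a in each library at 72 h, for Ars2 KO, CD28 AYAA, CD28 Y170F and WT. Points are libraries with their numbers, lines group means and error bars the SD, not drawn for WT. Ars2 KO number 3 is the highest of its group in the first 5 genes and the lowest in Cd8a.

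Genes lower in Ars2 KO were fewer and their differences smaller. H2-DMa, which loads peptides on MHC class II molecules, held 28.0, 23.2 and 36.9 CPM in Ars2 KO libraries, against 75.7, 73.0 and 55.6 CPM in CD28 AYAA libraries (log2 fold change -1.21, SE 0.2, adjusted p = 0.0006). WT libraries held 37.1 and 30.7 CPM, both below every CD28 AYAA library. H2-DMa overlaps Brd2 on the other strand. Hivep3, a zinc finger transcription factor, held 70.7, 75.5 and 58.5 CPM in Ars2 KO libraries and 171, 125 and 112 CPM in CD28 AYAA libraries (log2 fold change -0.99, SE 0.17, adjusted p = 0.00076), with 44.7 and 38.5 CPM in WT libraries. Prkar2b, a regulatory subunit of protein kinase A, fell by 1.22 (SE 0.24, adjusted p = 0.0026) and Pacsin1, a membrane-bending adaptor, by 1.05 (SE 0.19, adjusted p = 0.0016).

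Ndor1, an oxidoreductase of iron-sulphur protein assembly, was level within each group, at 30.1, 25.6 and 27.5 CPM in Ars2 KO libraries against 52.3, 55.8 and 48.5 CPM in CD28 AYAA libraries. The difference was -0.91 on the log2 scale (SE 0.11, adjusted p = 1.7e-05), and at 24 h it was -0.99 (adjusted p = 2.7e-06). WT libraries held 42.6 and 39.1 CPM. Ckap4, a membrane protein of the endoplasmic reticulum chosen because the 6 libraries alone called it, held 4.75, 4.16 and 5.38 CPM in Ars2 KO libraries and 15.9, 15.7 and 13.9 CPM in CD28 AYAA libraries (log2 fold change -1.67, SE 0.32, adjusted p = 0.0025). Of the other genes in the ranking, Ddx60 (-1.02, SE 0.28, adjusted p = 0.033), Lrrc4 (-0.9, SE 0.23, adjusted p = 0.02) and Pam (-0.89, SE 0.22, adjusted p = 0.016) were lost when single libraries were left out. Those were Ars2 KO number 2 or 3 or CD28 AYAA number 2 or 3 for Ddx60, Ars2 KO number 2 or CD28 AYAA number 1 or 2 for Lrrc4, and Ars2 KO number 3 or CD28 AYAA number 3 for Pam.

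Genes near the altered loci were counted beside all genes tested, of which 854 (4.67%) were called, 3.65% higher and 1.02% lower. No test of the difference in shares was made. Within 5 Mb of the start of Srrt on chromosome 5, 18 of 169 other genes tested were called (10.7%), 12 higher and 6 lower. Srrt itself is not in this count. Within 5 Mb of the start of Cd28 on chromosome 1, 8 of 81 others were called (9.88%), all higher in Ars2 KO.

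Ache, acetylcholinesterase, starts 20.2 kb from the start of Srrt, past its other end. It held 6.51, 4.77 and 7.7 CPM in Ars2 KO libraries, against 0.229, 0.038 and 0.076 CPM in CD28 AYAA libraries (log2 fold change 5.79, SE 1.02, adjusted p = 0.0012). Its neighbour Ufsp1, a protease for the modifier UFM1, held 8.02, 7.06 and 10.6 CPM in Ars2 KO libraries and 1.51, 1.56 and 1.41 CPM in CD28 AYAA libraries (log2 fold change 2.52, SE 0.45, adjusted p = 0.0013). The WT libraries differed from each other in both genes. WT number 4, at 4.8 CPM of Ache and 7.62 CPM of Ufsp1, stood with Ars2 KO, and WT number 1, at 0.172 and 1.25 CPM, with CD28 AYAA. The same split held for Gm36266, an antisense transcript 305 kb from Srrt, with 0.472, 0.153 and 0.191 CPM in Ars2 KO libraries, 2.79, 2.62 and 2.39 CPM in CD28 AYAA libraries, 4.48 CPM in WT number 1 and 0.939 CPM in WT number 4 (log2 fold change -3.2, SE 0.49, adjusted p = 0.00039).

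The lincRNA 4933404O12Rik, 389 kb from Srrt, held 28.6, 35.6 and 21.6 CPM in Ars2 KO libraries and 7.95, 7.29 and 5.66 CPM in CD28 AYAA libraries (log2 fold change 2.04, SE 0.32, adjusted p = 0.00045). WT number 1 held 8.13 CPM and WT number 4 held 19.7 CPM. On another chromosome, Slc41a3, a magnesium transporter gene called in the 6 libraries alone, held 6.88, 6.45 and 7.97 CPM in Ars2 KO libraries, 1.37, 1.75 and 1.37 CPM in CD28 AYAA libraries, 2.67 CPM in WT number 1 and 8.45 CPM in WT number 4 (log2 fold change 2.24, SE 0.35, adjusted p = 0.0004). At 24 h these genes differed in the same direction, with 5.64 for Ache, 2.29 for Ufsp1, -3.36 for Gm36266, 2.13 for 4933404O12Rik and 1.53 for Slc41a3. For the 4 genes on chromosome 5, the loss of Srrt and the chromosome that carries the changed allele cannot be told apart here. Slc41a3 lies on chromosome 6.

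Beyond the 5 Mb counted around Cd28, Acadl, Gm25939 and 6820402A03Rik were lower in both CD28 mutants than in Ars2 KO. They were chosen because the 6 libraries alone called them, and the share of genes called at these distances was not counted. Acadl, the long-chain acyl-CoA dehydrogenase of fatty acid oxidation, lies 6.15 Mb from the start of Cd28 and held 73.3, 92.5 and 80.2 CPM in Ars2 KO libraries, against 31.4, 36.0 and 42.6 CPM in CD28 AYAA libraries (log2 fold change 1.16, SE 0.15, adjusted p = 4.8e-05). CD28 Y170F libraries were low too, at 51.8, 34.6 and 33.8 CPM, and WT libraries held 98.6 and 87.4 CPM. Gm25939, annotated as a small nuclear RNA 11.5 Mb from Cd28, held 31.5, 46.4 and 60.6 CPM in Ars2 KO libraries and 3.43, 3.04 and 4.1 CPM in CD28 AYAA libraries (log2 fold change 3.71, SE 0.27, adjusted p = 6.3e-09). In CD28 Y170F libraries Gm25939 held 3.17, 3.29 and 3.69 CPM, and in WT libraries 74.6 and 41.5 CPM. Also 11.5 Mb from Cd28, Gm25360 was called lower in Ars2 KO (-0.98), and Gm24497 (-0.26) and Gm23472 (-0.1) were not called. Whether reads were divided between these genes was not tested. The transcript 6820402A03Rik, 6.08 Mb from Cd28, was at 0 in all CD28 AYAA and all CD28 Y170F libraries and held 2.22, 1.3 and 1.98 CPM in Ars2 KO libraries. Set against the level of 3 counts per library, 0.114 to 0.137 CPM, it was at least 15.1-fold higher in Ars2 KO.

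Icos, the inducible costimulatory receptor next to Cd28 and Ctla4, held 119, 111 and 115 CPM in Ars2 KO libraries, against 89.4, 83.9 and 72.4 CPM in CD28 AYAA libraries (log2 fold change 0.49, SE 0.12, adjusted p = 0.018). WT libraries held 81.8 and 104 CPM, both below every Ars2 KO library. The Icos call was lost without Ars2 KO number 1 (adjusted p = 0.057) or 3 (0.051) or without CD28 AYAA number 2 (0.057) or 3 (0.11), at values of 0.41 to 0.5. Mettl21a, a lysine methyltransferase 3.9 Mb away, held 19.5, 12.2 and 19.2 CPM in Ars2 KO libraries and 9.96, 9.83 and 9.8 CPM in CD28 AYAA libraries (log2 fold change 0.78, SE 0.15, adjusted p = 0.002).

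**Figure D5:**
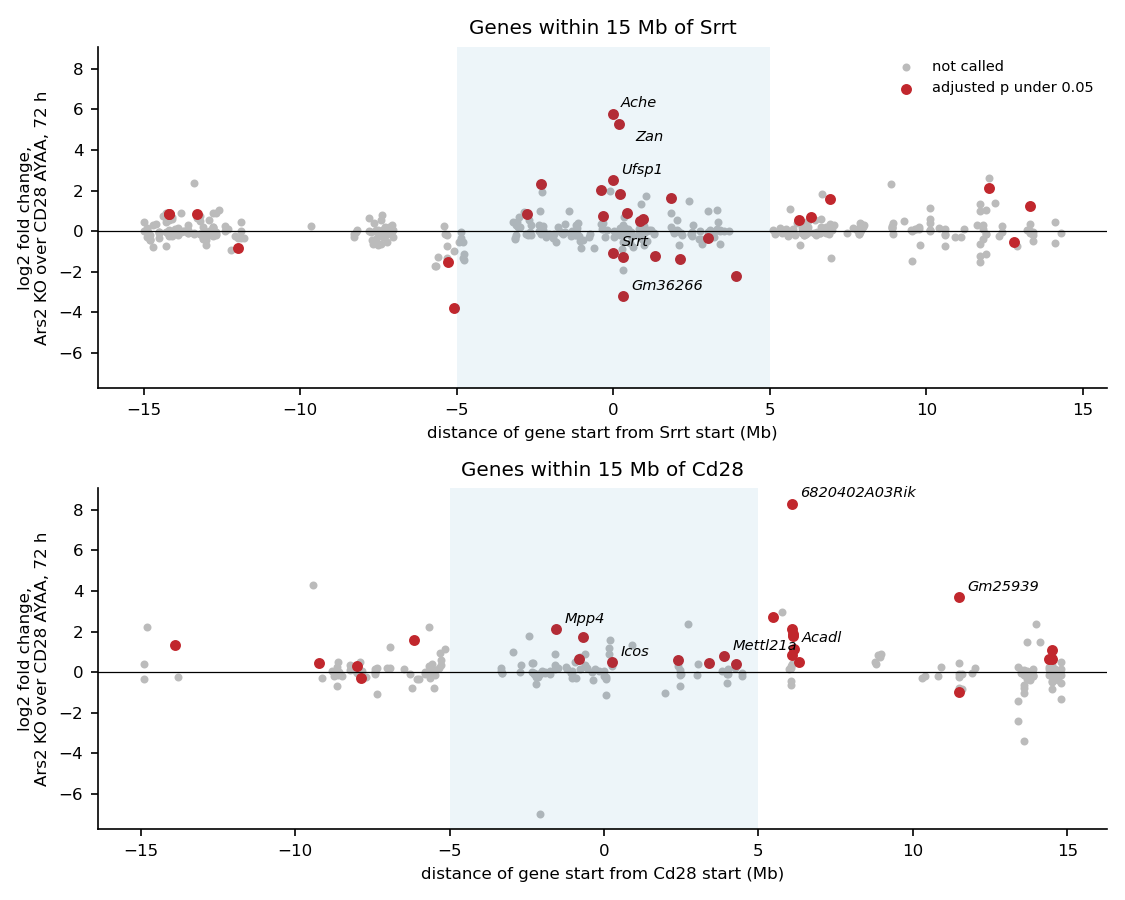
Log2 fold change of Ars2 KO over CD28 AYAA at 72 h (vertical axis) against the distance in Mb from the start of Srrt (upper panel) or Cd28 (lower panel) for genes within 15 Mb. Red points passed at an adjusted p under 0.05, grey points did not, and the shaded band spans 5 Mb on either side. Ache (5.79) and Ufsp1 (2.52) lie high beside Srrt, and Acadl (1.16) and Gm25939 (3.71) beyond the band on the Cd28 side. The fitted value of 6820402A03Rik, at 0 in CD28 AYAA, depends on the prior count.

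Markers of other cells were read by list. Of the 22 markers of myeloid cells, 4 rose and 0 fell, against 3.65% and 1.02% of all genes tested. The median was 1.46, 19 of the 22 had a positive log2 fold change, and 6 were called higher at 24 h. Summed over the list, levels were 54.4, 39.7 and 40.1 CPM in Ars2 KO libraries against 22.8, 25.9 and 30.0 CPM in CD28 AYAA libraries, as shares of total counts. Fcgr3, an Fc receptor, held 2.16, 1.3 and 2.59 CPM in Ars2 KO libraries and 0.0914, 0.152 and 0.304 CPM in CD28 AYAA libraries (log2 fold change 3.4, SE 0.53, adjusted p = 0.00041). Lyz2, myeloid lysozyme, held 10.7, 2.75 and 0.686 CPM in Ars2 KO libraries and 0.594, 0.228 and 0.228 CPM in CD28 AYAA libraries, and its log2 fold change of 3.78 was lost without Ars2 KO number 1 (2.32, adjusted p = 0.093).

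Itgam rose by 3.28 (adjusted p = 0.001) and S100a8 by 4.47 (adjusted p = 0.034), with S100a8 lost without Ars2 KO number 1 or any 1 CD28 AYAA library. The macrophage markers C1qa and C1qc were at 0 in all 6 libraries. Cd14, Adgre1, C1qb, Csf3r and Marco were at 0 in the 3 CD28 AYAA libraries but not in all Ars2 KO libraries. Without Ars2 KO number 1 the myeloid members called were 2, and without number 3 they were 6. Of 15 B cell markers edgeR, DESeq2 and limma-voom each called 0 (3 at an unadjusted p under 0.05). Outside this list Igha, an immunoglobulin heavy chain gene chosen after its values were seen, was called higher in Ars2 KO by edgeR. With 1 library left out its log2 fold change was 6.2 to 8.96. The Igha call was lost without Ars2 KO number 1 (adjusted p = 0.11) or any 1 CD28 AYAA library (0.08 to 0.1). Of 10 genes on the NK cell list 1 rose, Kit (1.97, SE 0.36, adjusted p = 0.0018), which by itself does not identify NK cells. Of 11 erythroid and platelet markers 1 rose, Itga2b (1.78, SE 0.36, adjusted p = 0.0038). Summed NK cell markers were at 79.5, 151 and 56.6 CPM in Ars2 KO libraries and 47.5, 61.7 and 152 CPM in CD28 AYAA libraries, and erythroid and platelet markers at 9.02, 4.59 and 4.52 CPM in Ars2 KO libraries and 2.78, 2.44 and 1.73 CPM in CD28 AYAA libraries. The part of these cells in the differences above was not tested.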

How the data were processed

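Total RNA libraries were analysed from 34 samples in 13 groups, 6 of them in the contrast described. The authors deposited 1 table whose values are expected counts, which need not be whole. STAR, RSEM, FastQC, limma and bcl2fastq 2.20 appear with the builds GRCm38 and mm10 in lists credited to the submitters' processing notes. The role of each tool, the annotation release, filters and strand setting are not given in the sources used here. Per the labels' protocols, second strands incorporated dUTP. Of 48526 genes, 48144 (99.2%) matched GENCODE M21 by identifier, which gave coordinates.

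After rounding, all libraries entered a model in edgeR 4.0.16 under R 4.3.3 (quasi-likelihood F test, 1 mean per group over all 34 libraries, TMM, default filter, Benjamini-Hochberg). The SE is the log2 fold change divided by the square root of F. In simulated data for the 72 h contrast (17092 genes), 97 of 100 changes of 1 and 100 of 100 changes of 2 on the log2 scale were recovered, with 10 false calls among 207. The simulation gave every gene and group the same biological coefficient of variation, 0.16, and changed only genes of higher mean level. These rates therefore do not apply to genes of low level or to groups of unequal spread, as here.

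The members and the gene lists were chosen with earlier results of these data known. Always named were Srrt, Cd28 and Pkm. Then came up to 12 called genes per direction with the largest difference at 72 h (mean log2 CPM of at least 3, groups not overlapping), up to 4 per direction for the change between days, up to 4 per list and up to 6 within 5 Mb of Srrt or Cd28. Predicted genes, ribosomal protein genes and antigen receptor segments were left out of the ranking. Txnrd1, Gclc, Gclm, Hmox1, Trp53, Trp53inp1, Cdkn1a, Ei24, Gtse1 and the chains of the T cell receptor complex were added afterwards, as were genes called in the 6 libraries alone. Alternatives were DESeq2 1.42.0, limma-voom (limma 3.58.1), RLE scaling, other filters, terms for replicate number and sex, protein-coding genes alone, the groups compared alone, and each library left out. Figures were drawn with matplotlib 3.10.9. WT and CD28 Y170F levels are described beside the contrast, and no test against them was made.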

Additional observations from a re-analysis of the deposited data

Results flagged for a closer look

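The following genes were singled out because the difference between Ars2 KO and CD28 AYAA changed between 24 h and 72 h by a test of that change itself, at an adjusted p under 0.05 in edgeR. Values are the log2 difference at 72 h minus that at 24 h. Groups of 3 libraries were too small for a test of single outlying samples. Among genes of cell survival, Bmf moved by 2.0, Bbc3 by 1.64 and Trp53inp1 by 1.18, all towards Ars2 KO at 72 h. The cystine importer Slc7a11 moved by -3.75, the largest change in size of those listed here, from a positive difference at 24 h to a negative one at 72 h. The highest values among genes ranked for this test were those of Sytl2 (2.67), Tbc1d4 (2.3), Gprc5b (2.15) and Fmo5 (1.99), and the lowest those of Sema7a (-2.2), Hist1h3d (-2.15), Irf8 (-2.08) and Pif1 (-2.05).

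Other genes that were also higher in Ars2 KO at 72 h moved in the same direction, with Cd101 at 1.96, Pgap1 at 1.66, Gm12000 at 1.61, Dnah17 and Letm2 at 1.44, Hist2h2be at 1.29 and Ap4b1 at 0.73. So did Tob1, an antiproliferative gene of quiescent T cells (1.23), the hypoxia response genes Bnip3l (0.99) and Kdm3a (0.54), Fam117b near Cd28 (0.99), Jak1 (0.72) and Pik3r1 (0.5). Of genes lower in Ars2 KO at 72 h, Isg20 moved by -1.57, H2-DMa by -1.56 and Il4ra by -0.98. For Tbc1d4, Cd101, Dnah17 and Trp53inp1 the difference at 72 h itself was lost without Ars2 KO number 3.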

How the results depend on the processing

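At 72 h the count of 854 called genes stayed within 1.5 times with DESeq2, RLE scaling, a sex term, limma-voom, protein-coding genes alone or all genes unfiltered (740 to 1175). It was 477 when the mean log2 CPM had to reach 3, and 14 in the 6 libraries alone. With 1 library left out it ranged from 375 to 1553. At 24 h (1731) the range with 1 library left out was 773 to 1910. For the difference between days (644), DESeq2 gave 1191, no filter 1097, the groups of the contrast alone 414, and leaving out 1 library 122 to 1986. The cause of these shifts was not tested, apart from the smaller number of libraries or genes in the fit. At 72 h no named gene changed direction under a setting if it was called in the fit to all 34 libraries or under that setting. Changes of sign in genes called in neither were not counted. Of the 201 named genes, only those called at 72 h in the fit to all 34 libraries could lose a call. Among them, 29 did without Ars2 KO number 3 and 10 without number 2. In the 6 libraries alone 75 did, and 89 with the replicate block there.

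Deviations of same-numbered Ars2 KO and CD28 AYAA libraries correlated at 0.49, -0.16 and 0.09 at 72 h. Those of libraries with different numbers correlated at -0.59 to 0.43. With 3 libraries per group, and sex mixed among them, these values cannot decide whether replicate numbers pair the samples. With the replicate number as a block the counts were 831 at 72 h, 1649 at 24 h and 624 for the difference between days. With the block in the groups of the contrast alone they were 0, 1025 and 355. Groups of 3 libraries limit the precision, most for genes near 1 CPM.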
